A study of Mus musculus with 24 samples.

Results

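Pomk, Arsb, Fjx1, Osgin2, Lzts3 and BC039771 are genes with little history in nerve tumours, and they were followed across the treatment groups of a drug study in mouse sciatic nerve. They are 6 of 24421 genes in the count table and 6 of the 15385 with enough counts to be tested, and all 6 passed that filter. They had been selected on their measured shift between the combination and vehicle groups, so their values in that contrast describe the choice and carry no test here. Of the 19 genes whose adjusted p fell under 0.05 in that contrast (0.123% of those tested), Lzts3 ranked 2, Pomk 5, Fjx1 8, Osgin2 12, BC039771 13 and Arsb 19. Lzts3 was 1 of 2 genes called higher (0.013%), and the other 5 were among 17 called lower (0.11%). Arsb was the last gene inside the threshold. The 3 genes just outside it, each at an adjusted p of 0.05001 in edgeR's quasi-likelihood model, were Egr1 (log2 fold change -2.25), Slc27a6 (-1.41) and Clcn5 (-1.07).

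RNA was sequenced from bulk sciatic nerve of mice whose genotype is Nf1 flox/flox PostnCre+, at the labelled stage of plexiform neurofibroma, a benign growth of nerve sheath cells. All groups carry both floxed Nf1 alleles and the Cre, which the Postn promoter drives and which is known to recombine in the Schwann cell lineage. Nf1 encodes neurofibromin, which restrains RAS and thereby ERK signalling. The 4 groups of 6 libraries had each been treated for 1 week. The combination group received abemaciclib and LY3214996 together, the ERKi group LY3214996 alone (an inhibitor of ERK1/2), the CDKi group abemaciclib alone (an inhibitor of CDK4/6), and the vehicle group neither drug. Nerves with intact Nf1 were not analysed here, and the labels give no age or dose. Nothing in them says that libraries came from separate animals, so any p-value measures only the spread between these samples.

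Total counts per library ran from 12096063 to 18518610 in the combination, while ERKi libraries held 14525128 to 24676846, CDKi libraries 15118837 to 19757307 and vehicle libraries 5391543 to 42321550. Pan Schwann markers, 11 of 11 tested, were present throughout, with summed levels of 7084 to 20085 CPM (TMM-scaled counts per unit of library size) in the combination, 4839 to 17842 CPM in ERKi, 11084 to 19543 CPM in CDKi and 13603 to 20793 CPM in vehicle. Neuron transcripts, which a nerve gains when ganglion tissue is included, were low in combination 3 and 5, CDKi 3 and 5, and vehicle 1 and 5. Liver transcripts (Alb above 100 CPM) stood out in ERKi 3, CDKi 1 and CDKi 3, and Xist occurred with Y-linked transcripts in ERKi 3, CDKi 2 and CDKi 3. In bulk tissue, fewer cells of a type and less RNA per cell cannot be told apart.

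The 6 genes do unrelated jobs. Pomk encodes protein O-mannose kinase, an enzyme of the endoplasmic reticulum that phosphorylates an O-linked mannose on dystroglycan, a step needed before the sugar chain that binds laminin can be built. Dystroglycan is a laminin receptor of Schwann cells, and loss of POMK in humans causes a muscular dystrophy of the dystroglycan type. Arsb encodes arylsulfatase B, the lysosomal enzyme that removes sulfate from dermatan and chondroitin sulfate, and its loss in humans causes a mucopolysaccharidosis. Fjx1 is the mammalian counterpart of Drosophila four-jointed, a Golgi kinase that in the fly phosphorylates the cadherins Fat and Dachsous. Osgin2 belongs with Osgin1 to a family named for induction by oxidative stress. Lzts3 encodes a leucine zipper protein that, in rat brain, binds Shank proteins of the postsynaptic density. BC039771 is a long non-coding RNA with no known role.

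In RefSeq GRCm38.p6, Lzts3 lies at chr2:130632765-130642866 and Fjx1 at chr2:102449366-102451792, both on the minus strand. Pomk lies at chr8:25980604-25994121 and Osgin2 at chr4:15996354-16015258, also on the minus strand, and Arsb at chr13:93771679-93943016 on the plus strand. BC039771 is annotated there as a lncRNA at chr2:145701195-145753672 on the plus strand. GENCODE vM21 gives nearly the same span, chr2:145701197-145753672, to a transcript of 4 exons that it assigns to Rin2, a gene for a regulator of RAB proteins. RefSeq starts Rin2 itself 18054 bases further on. Reads counted as BC039771 may therefore belong to a long upstream form of Rin2, and the annotation behind the counts is not given in the sources used here. Gm34513, an untested lncRNA, overlaps the span of BC039771 as well, and reads from it may not be told apart. Rin2 as counted had a log2 fold change of 0.14 ± 0.17 SE between combination and vehicle (adjusted p = 0.817, edgeR quasi-likelihood). That value lies on the other side of 0 from BC039771.

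Promoter sequences around the annotated start were at hand for 3 of the 6 genes (RefSeq, GRCm38.p6, 300 bases each, 5′ to 3′ on the gene's strand). They are shown because Lzts3, the gene that was higher in the combination, can be set beside Arsb and BC039771, which were lower. Capitals mark GC boxes (GGGCGG, or CCGCCC on the other strand) and CCAAT boxes (CCAAT, or ATTGG on the other strand). The windows are chr2:130642795-130643094 for Lzts3 (minus strand), chr13:93771429-93771728 for Arsb (plus strand) and chr2:145700945-145701244 for BC039771 (plus strand).
Lzts3: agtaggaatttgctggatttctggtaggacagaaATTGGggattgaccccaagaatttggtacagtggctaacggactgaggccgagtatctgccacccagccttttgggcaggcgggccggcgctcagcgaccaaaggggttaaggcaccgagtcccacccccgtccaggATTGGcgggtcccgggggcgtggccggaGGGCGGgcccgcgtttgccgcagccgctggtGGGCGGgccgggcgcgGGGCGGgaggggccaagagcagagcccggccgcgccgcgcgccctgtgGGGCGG
Arsb: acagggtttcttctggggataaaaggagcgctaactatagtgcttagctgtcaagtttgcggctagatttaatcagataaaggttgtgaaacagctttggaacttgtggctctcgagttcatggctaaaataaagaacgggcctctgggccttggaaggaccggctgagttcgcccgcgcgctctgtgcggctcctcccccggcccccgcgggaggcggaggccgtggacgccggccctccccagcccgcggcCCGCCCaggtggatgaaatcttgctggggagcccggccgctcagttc
BC039771: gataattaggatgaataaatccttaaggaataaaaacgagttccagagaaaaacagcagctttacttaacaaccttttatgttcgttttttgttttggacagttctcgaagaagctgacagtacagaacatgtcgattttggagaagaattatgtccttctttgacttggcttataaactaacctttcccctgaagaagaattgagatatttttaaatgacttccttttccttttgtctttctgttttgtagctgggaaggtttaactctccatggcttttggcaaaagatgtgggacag

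The Lzts3 window held 4 GC boxes and 2 CCAAT boxes at a GC content of 69.3%. The Arsb window held 1 GC box and no CCAAT box at 60.3%, and the BC039771 window neither at 35.7%, against a median GC content of 52.7% over 32851 promoters. GC boxes occur in 35.7% of those promoters and CCAAT boxes in 37.4%. Letters bound by ETS factors (CCGGAA, in 14.9% of promoters), AP-1 (TGANTCA, 7.81%), CREB (TGACGTCA, 1.79%), E-box factors (CACGTG, 7.15%) and E2F (TTTGGCGC, 0.514%) were searched on both strands and were not in any of the 3 windows. A match describes the letters and not a bound site, and a missing match says nothing about the factor.

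Pomk was lowest in the combination and highest in vehicle. Its level ran from 14.9 to 22.2 CPM in the combination (median 19.8), 20.3 to 24.8 in ERKi (median 22.5), 20.1 to 27.2 in CDKi (median 22.996) and 25.3 to 31.8 in vehicle (median 27.1). All combination libraries lay below all vehicle libraries, which held for 89 of 15385 genes (0.578%). All ERKi libraries lay below them too, which held for 21 genes (0.136%). The vehicle libraries entered the choice of Pomk, so nothing is read from either share. The log2 fold change from vehicle was -0.51 ± 0.094 SE in the combination (0.701 times the vehicle level), -0.30 ± 0.094 in ERKi and -0.27 ± 0.094 in CDKi. Both single drugs thus sat midway, at 22.5 ± 1.59 CPM in ERKi and 22.9 ± 2.66 CPM in CDKi (mean ± SD, n = 6 each), and the combination was 0.21 below ERKi and 0.24 below CDKi on the log2 scale. Combination 5 was the lowest library at 14.9 CPM, and combination 1 and 6, at 20.7 and 22.2 CPM, lay inside the ERKi range.

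Genes that act with Pomk on dystroglycan lay on both sides of 0. Of 17 other tested genes of O-mannosylation, 12 were lower in the combination than in vehicle, as 43.6% of all tested genes were. Their median log2 fold change was -0.18 against 0.036 over all genes, and 0 were called either way. Pomt1, a subunit of the enzyme that adds the first mannose, was at -0.33 (10.4 ± 0.985 CPM in the combination, 13.1 ± 2.37 CPM in vehicle). Dpm3, a subunit of the enzyme that makes the mannose donor, was at -0.43. Its partner Dpm1, named after its values were seen as the highest of the list, was at 0.33. Among 19 tested genes for dystroglycan's ligands and complex, 15 were lower, with a median of -0.21 and 0 called. Lama2, a laminin chain of the Schwann cell basal lamina, was at -0.47 and the syntrophin gene Sntb1 at -0.33. For both lists the counts in ERKi against vehicle were alike, at 12 of 17 (median -0.088) and 16 of 19 (median -0.29), where 50% of all genes were lower with 0 called (0%). The comparisons share the vehicle libraries.

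Fnta lies next to Pomk, 4566 bases beyond its start, and encodes the alpha subunit of farnesyltransferase, the enzyme that prenylates RAS. It was picked out after its values were seen. Its log2 fold change was -0.59 ± 0.14 SE in the combination (adjusted p = 0.0770), -0.25 ± 0.14 in ERKi and -0.15 ± 0.14 in CDKi, all against vehicle. Hgsnat, the neighbour on the other side of Pomk, was at -0.06 ± 0.14 (adjusted p = 0.915, edgeR quasi-likelihood). An untested lncRNA, Gm31402, overlaps the start of Pomk, and the strand setting of the counting is not given, so reads from the pair cannot be told apart.

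Arsb, the most abundant per exon length of the 5 members that have one, was 65.5 ± 4.45 CPM in the combination, 73.4 ± 11.6 in ERKi, 82.2 ± 11.5 in CDKi and 93.8 ± 8.43 in vehicle. Libraries ran from 59.2 to 69.6 CPM in the combination (median 66.5), 53.9 to 84.4 in ERKi (median 77.6), 68.7 to 101 in CDKi (median 81.2) and 77.6 to 101 in vehicle (median 95.8). The combination lay wholly below vehicle, as for 0.578% of genes, although vehicle 4 at 77.6 CPM lay apart from the other 5 vehicle libraries. The log2 fold change from vehicle was -0.52 ± 0.11 in the combination (0.699 times the vehicle level), -0.35 ± 0.11 in ERKi and -0.19 ± 0.11 in CDKi. The combination stood 0.16 below ERKi and 0.33 below CDKi on the log2 scale. Per kilobase of exon in GENCODE, which holds no gene named BC039771, vehicle levels were 15.5 CPM for Arsb, 7.68 for Pomk, 4.15 for Lzts3, 3.29 for Osgin2 and 1.93 for Fjx1.

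The lists of lysosomal sulfatases and of glycosaminoglycan turnover had 0 called genes beside Arsb. Of 9 other genes of the sulfatase list, which includes the sulfatase-modifying factors Sumf1 and Sumf2, 6 were lower in the combination than in vehicle, with a median of -0.074. Galns, which removes sulfate from keratan and chondroitin sulfate, was at -0.40, and Arsa, the sulfatidase whose loss causes a leukodystrophy in humans, was at 0.10. Of 13 enzymes of glycosaminoglycan breakdown 11 were lower (median -0.13). Naglu, which cleaves heparan sulfate, was at 11.6 ± 1.26 CPM in the combination and 17.6 ± 1.72 CPM in vehicle (-0.60, adjusted p = 0.120), and the hyaluronidase gene Hyal2 was at -0.28. Of 21 genes that build chondroitin and dermatan sulfate 13 were lower (median -0.064). Within that list Chsy1, a chondroitin synthase, had 19.7 ± 4.99 CPM in the combination and 40.7 ± 12.8 CPM in vehicle (-1.05, adjusted p = 0.0966). Xylt1, which starts the chain on the core protein, had 10.03 ± 2.67 CPM in the combination and 20.01 ± 4.04 CPM in vehicle (-0.997).

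Fjx1 was lowest in the combination, and its mean in CDKi was near that in vehicle. It measured 2.27 to 3.003 CPM in the combination (median 2.62), 2.87 to 6.65 in ERKi (median 3.85), 3.88 to 10.2 in CDKi (median 6.09) and 5.11 to 7.501 in vehicle (median 5.80). The combination libraries lay below every vehicle library, as for 0.578% of genes, and below every CDKi library, as for 27 genes (0.175%). The combination libraries entered the choice of Fjx1, so nothing is read from either share. Both single drugs overlapped vehicle. The log2 fold change from vehicle was -1.21 ± 0.23 SE in the combination (0.433 times the vehicle level), -0.46 ± 0.22 in ERKi and 0.09 ± 0.22 in CDKi. The means were 2.61 ± 0.267 CPM in the combination, 4.37 ± 1.499 in ERKi, 6.43 ± 2.39 in CDKi and 6.06 ± 0.995 in vehicle (SD, n = 6 each), and those of CDKi and vehicle differed by less than their SDs. The combination value minus the sum of the single-drug values was -0.84 ± 0.32 SE. This difference uses the libraries that chose the gene and is given with no test. With the nerve fibroblast list as a covariate ERKi against vehicle was -0.16, and without CDKi 3 the value of CDKi against vehicle turned to -0.074. The raw counts of Fjx1 were 27 to 52 per library in the combination and 42 to 258 in vehicle.

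Genes of the pathway in which four-jointed acts in the fly had no common direction. Of 18 other tested Fat and Dachsous genes, 10 were higher and 8 lower in the combination than in vehicle, with a median of 0.088 and 0 called. Fzd6, a frizzled receptor of planar polarity, was at 1.199. Its combination libraries ran from 4.97 to 27.5 CPM and its vehicle libraries from 2.18 to 6.93. Prickle2, a cytoplasmic planar polarity protein, was at -0.52, with 83.5 ± 13.3 CPM in the combination and 120 ± 10.7 CPM in vehicle. Among 7 other kinases of the secretory pathway, to which Fjx1 and Pomk belong by compartment, 5 were lower and 0 called. Their median was -0.053. Fam20c, the main kinase of secreted proteins, was at 27.5 ± 6.07 CPM in the combination and 54.8 ± 12.8 CPM in vehicle (-0.99, edgeR quasi-likelihood adjusted p = 0.0727). Fam69c was at -1.38, with 1.73 ± 0.748 CPM in the combination and 4.53 ± 1.69 CPM in vehicle. The remaining kinases of that list lay between -0.17 (Pkdcc) and 0.18 (Fam20a).

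Osgin2 was 11.6 to 15.6 CPM in the combination (median 12.3), 13.8 to 18.1 in ERKi (median 15.8), 12.2 to 18.04 in CDKi (median 15.9) and 17.1 to 19.6 in vehicle (median 18.4). The combination range lay wholly below the vehicle range, as for 0.578% of genes. Of the 6 combination libraries 5 lay between 11.6 and 12.4 CPM, with combination 1 above them at 15.6. The log2 fold change from vehicle was -0.53 ± 0.10 in the combination (0.695 times the vehicle level), -0.21 ± 0.10 in ERKi and -0.25 ± 0.10 in CDKi. As with Pomk, both single drugs stood about midway, and the combination was 0.32 below ERKi and 0.27 below CDKi. Its relative Osgin1 had a higher mean in the combination by little more than its SE, with 4.41 ± 1.13 CPM in the combination and 3.55 ± 0.701 CPM in vehicle (0.31 ± 0.23). Of 17 other genes of the Osgin family and of NRF2, the factor of the oxidative stress response, 10 were lower and 7 higher, with a median of -0.052 and 0 called. The haem oxygenase gene Hmox1 was at -0.52 and the peroxiredoxin gene Prdx1 at -0.45.

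Lzts3 was the 1 member with a higher mean in the combination than in vehicle. It ran from 21.02 to 29.1 CPM in the combination (median 26.5), 20.3 to 24.1 in ERKi (median 22.7), 18.3 to 23.4 in CDKi (median 20.8) and 15.2 to 20.5 in vehicle (median 16.95). Every combination library was above every vehicle library, which held for 0.279% of genes, and the closest pair was combination 6 (21.02 CPM) and vehicle 4 (20.5 CPM). The log2 fold change from vehicle was 0.56 ± 0.096 SE in the combination (1.48 times the vehicle level), 0.35 ± 0.096 in ERKi and 0.22 ± 0.096 in CDKi. The combination value minus the sum of the single-drug values was -0.0074 ± 0.13. The means fell in the order combination (26.1 ± 3.05 CPM), ERKi (22.5 ± 1.54), CDKi (20.6 ± 2.04) and vehicle (17.7 ± 2.23), and each neighbouring pair in that order overlapped.

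Relatives and partners of Lzts3 lay on both sides of 0. Lzts2 was at 0.30 ± 0.20 (62.1 ± 14.5 CPM in the combination, 50.2 ± 7.95 CPM in vehicle), and Lzts1, at 2.14 ± 1.95 CPM in the combination and 1.25 ± 1.03 CPM in vehicle, was too scarce to place (0.73 ± 0.80). Of 13 other tested genes of the family and its postsynaptic partners, 7 were higher and 6 lower, with a median of 0.012 and 0 called. Shank3, a postsynaptic scaffold that binds LZTS3, was at 0.85, with 11.4 to 40.1 CPM in the combination and 10.2 to 15.3 CPM in vehicle. N4bp3 was at -0.62. An untested lncRNA, Gm52563, overlaps Lzts3, and the coding neighbours Ubox5 and Fastkd5 were at 0.20 ± 0.10 and 0.06 ± 0.093.

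BC039771 was near the low end of detection. It had 0.837 to 2.31 CPM in the combination (median 1.17), 1.81 to 3.70 in ERKi (median 2.41), 1.596 to 2.66 in CDKi (median 2.09) and 2.31 to 3.91 in vehicle (median 3.19), from 11 to 40 counts per library in the combination and 21 to 150 in vehicle. The floor of detection, set at 3 counts, was 0.160 to 0.262 CPM in the combination libraries. All combination libraries but combination 4 lay below the lowest vehicle library, vehicle 5, with which combination 4 was level at 2.31 CPM. The log2 fold change from vehicle was -1.20 ± 0.23 in the combination (0.435 times the vehicle level), -0.29 ± 0.23 in ERKi and -0.60 ± 0.23 in CDKi. Its mean was 2.59 ± 0.644 CPM in ERKi and 2.10 ± 0.395 CPM in CDKi, ranges that overlapped. Without combination 4 the log2 fold change between combination and vehicle was -1.42, and with the nerve fibroblast list as a covariate ERKi against vehicle turned to 0.020.

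**Figure D1:**
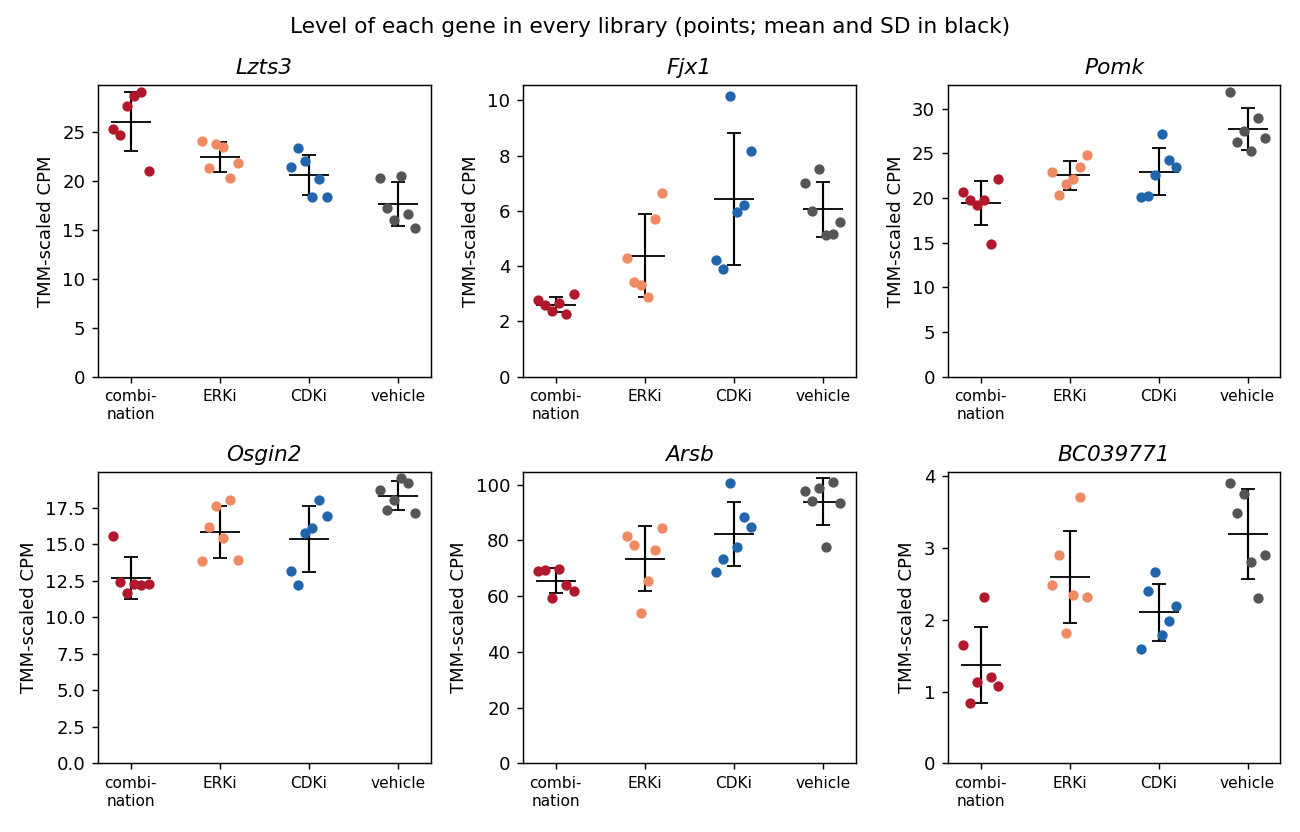
TMM-scaled CPM of the 6 genes in each of the 24 libraries, by group (combination, ERKi, CDKi, vehicle), with points for libraries and black bars for mean and SD. Lzts3 sits highest in the combination (21.02 to 29.1 CPM) and the other 5 genes lowest there, and Fjx1 is narrow in the combination (2.27 to 3.003 CPM) and wide in CDKi (3.88 to 10.2 CPM).

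Across the 6 genes, the single drugs fell between combination and vehicle in most cases. The group means of Pomk, Osgin2, Arsb and BC039771 were lowest in the combination and highest in vehicle, an order that 12.3% of all genes had, and Lzts3 had the mirrored order, shared by 9.89%. Choosing genes by their shift between combination and vehicle itself favours such orders, so nothing is read from these shares. Fjx1 broke the order through CDKi. Departures of the combination from the sum of the single-drug values on the log2 scale were 0.06 ± 0.13 for Pomk, 0.03 ± 0.15 for Arsb, -0.06 ± 0.14 for Osgin2 and -0.31 ± 0.32 for BC039771. These comparisons with vehicle share the same 6 vehicle libraries.

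**Figure D2:**
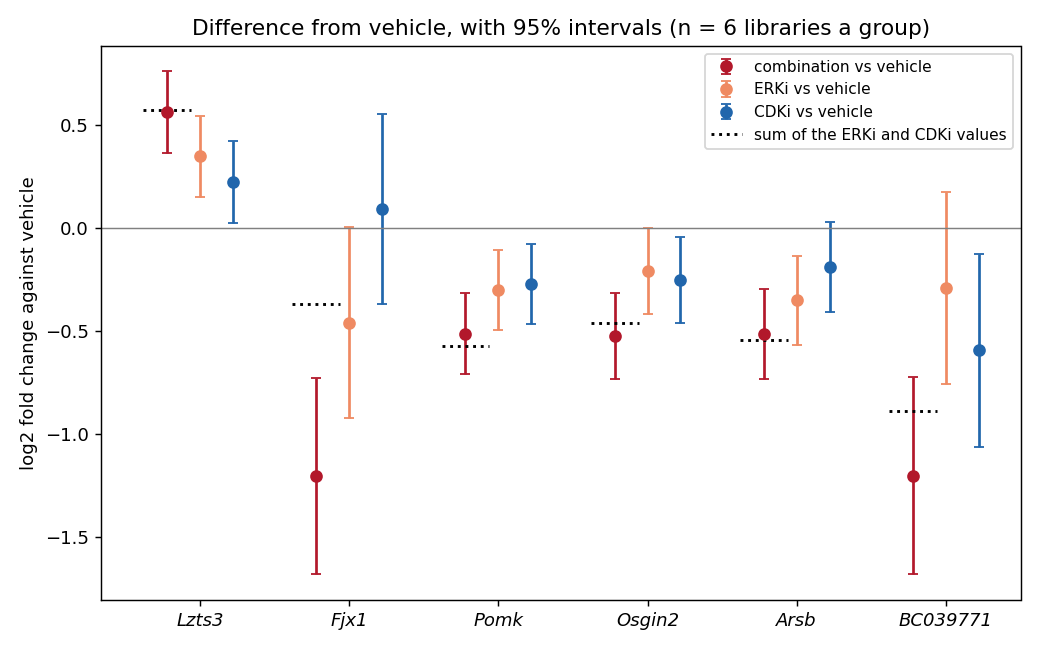
Log2 fold change against vehicle for each gene in the combination, ERKi and CDKi, with 95% intervals, and a dotted line at the sum of the ERKi and CDKi values. The combination value minus the dotted line is -0.84 for Fjx1 and -0.0074 for Lzts3.

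ERKi against CDKi uses neither of the groups whose difference chose the 6 genes, and there they were tested. The ERKi and CDKi libraries did enter the estimate of spread shared by all groups in the model behind that choice, so the test is not fully independent of it. The edgeR quasi-likelihood model called 0 of 15385 genes (0%) after Benjamini-Hochberg adjustment, with 698 at an unadjusted p under 0.05 (4.54%), and DESeq2 and limma-voom also called 0. Fjx1 came closest of the 6, at -0.55 ± 0.22 (95% interval -1.01 to -0.089, unadjusted p = 0.0215, adjusted p = 0.770), and was under the CDKi mean in 5 of 6 ERKi libraries. With 1 library left out this Fjx1 value ran from -0.74 (without ERKi 6) to -0.39 (without CDKi 3). With the nerve fibroblast list as a covariate it was -0.30. BC039771 was at 0.30 (interval -0.16 to 0.77), Lzts3 at 0.12 (-0.074 to 0.32) and Arsb at -0.16 (-0.38 to 0.055), each with an adjusted p of 0.770. Pomk was at -0.03 (-0.22 to 0.17, adjusted p = 0.937) and Osgin2 at 0.04 (-0.16 to 0.25, adjusted p = 0.903). These intervals do not show that the drugs act alike on any of them.

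ERK output genes were set beside the 6 as the pathway the ERK inhibitor targets. Of 23 tested, 20 were lower in the combination than in vehicle (median -0.46), and 3 were called lower. Over all genes 43.6% were lower and 0.11% were called lower. In ERKi against vehicle 18 of the 23 were lower (median -0.24, against 50% of all genes) with 0 called. In CDKi against vehicle 11 were lower (median 0.0028) with 0 called. Etv4, an ETS factor induced by ERK, had 6.14 ± 2.01 CPM in the combination, 14.8 ± 4.36 in ERKi, 18.6 ± 4.22 in CDKi and 18.6 ± 5.57 in vehicle. Its CDKi mean was level with vehicle, and that of Fjx1 was near it. Egr3 and Spry4 were the other called genes, at -2.28 ± 0.44 and -1.66 ± 0.33. In CDKi against vehicle Egr3 was at -0.51 ± 0.41 and Spry4 at -0.16 ± 0.32. In ERKi against vehicle they were at -0.53 ± 0.41 and -0.26 ± 0.32. In ERKi against CDKi 21 of 23 ERK output genes were lower (median -0.19, against 51.6% of all genes lower) with 0 called.

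**Figure D3:**
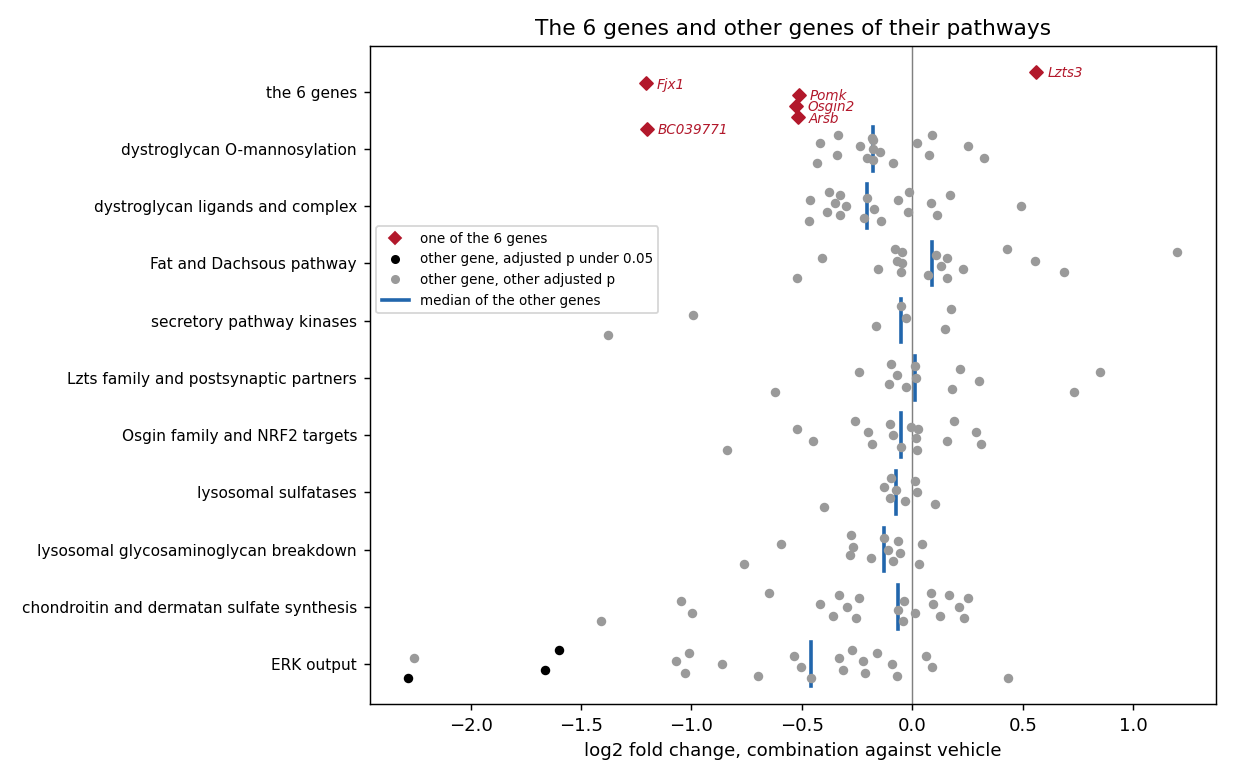
Log2 fold change between combination and vehicle for the 6 genes (red diamonds) and for other tested genes of their pathways, with 1 row for each list and a blue bar at the median. Medians of the lists lie between -0.21 and 0.088 except for ERK output at -0.46, where the 3 called genes (black) sit.

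Genes whose levels were most like each member over the 24 libraries differed from member to member. Fjx1 was followed most closely by Surf4, an export receptor of the endoplasmic reticulum, and Tgfbi, a matrix protein induced by TGF-beta (Pearson r 0.90 each), and by the fibrillin gene Fbn2 (0.88). After group means were subtracted Surf4 (0.86) and Tgfbi (0.82) still led for Fjx1, with Gcg (0.81) next. Arsb was most like Alpl, Col6a2 and Mmp2 (0.90, 0.90 and 0.89), and within groups like the collagen genes Col1a1, Col15a1 and Col6a2 (each 0.87). Pomk was most like Fbn2 (0.82), Heatr5a (0.82) and Megf10 (0.81), and within groups like Mycn (0.84), Armcx6 (0.73) and Klf16 (0.70). Osgin2 was most like Mob3a (0.76), Pomk (0.74) and Heatr5a (0.74), and within groups its best partner, Ubxn8, reached 0.58. Lzts3 was most like Rnf214 (0.79), Rprd1b (0.78) and Ppm1b (0.78), and within groups like the translation factor gene Eif4b (0.82), Fbxw10 (0.78) and Fbxo32 (0.78). BC039771 was most like Prtg (0.82), Trpm6 (0.81) and Tlr5 (0.80), and within groups like Scara5 (0.79), the fibroblast receptor gene Pdgfra (0.77) and Gxylt2 (0.76). These r are the highest of many, come from libraries that share group and depth, and are a description.

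Among the 15 pairs of members, Fjx1 and Arsb moved together most within groups (r 0.70), then Fjx1 and Pomk (0.52). Lzts3 ran against the other 5 over all libraries, with r from -0.80 for Pomk to -0.54 for BC039771. Within groups its r with them ran from -0.44 for Pomk to 0.16 for BC039771. Osgin2 had within-group r of at most 0.32 with any member.

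Markers of nerve fibroblasts, the cells that make most collagen of the nerve, ran in parallel with several members across libraries. Summed over 10 of 10 tested markers they measured 6850 to 15898 CPM in the combination, 4391 to 15072 CPM in ERKi, 10710 to 23473 CPM in CDKi and 13256 to 21214 CPM in vehicle, and none was at 0 in any whole group. In combination against vehicle 9 of 10 were lower (median -0.63, 0 called). Over the 24 libraries the mean log2 CPM of the list had an r of 0.86 with Arsb (0.82 within groups), 0.71 with Fjx1 (0.62), 0.63 with BC039771 (0.67), 0.47 with Pomk (0.13), 0.42 with Osgin2 (0.13) and -0.47 with Lzts3 (-0.041). Other lists also ran with or against members. Endothelial markers had an r of 0.58 with Lzts3, -0.54 with BC039771, -0.50 with Osgin2, -0.49 with Pomk and Fjx1, and -0.30 with Arsb. Within groups myelinating Schwann markers had 0.56 with Arsb and 0.53 with BC039771. Mast cell markers had 0.53 with Fjx1 within groups. These 3 within-group values were each below that of the fibroblast list.

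**Figure D4:**
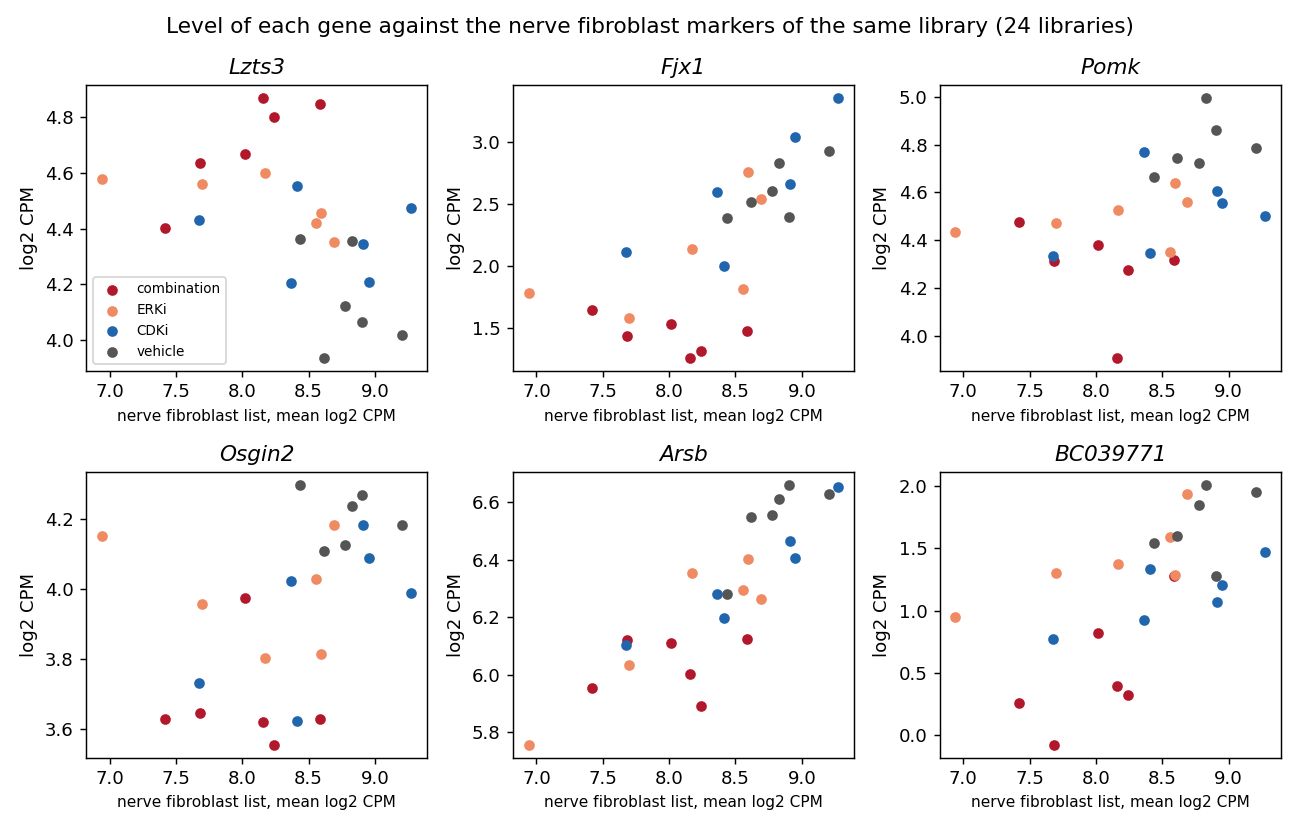
Log2 CPM of each gene against the mean log2 CPM of 10 nerve fibroblast markers in the same library, for 24 libraries coloured by group. Arsb climbs with the list over the 24 libraries (r 0.86) but shows little slope among the combination libraries. Pomk, Osgin2 and Lzts3 separate combination from vehicle with little slope within a group.

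With the fibroblast list as a covariate, an alternative chosen after seeing the data, the log2 fold change between combination and vehicle was -0.29 for Arsb, -0.81 for Fjx1 and -0.85 for BC039771, and stayed at -0.48 for Pomk, -0.49 for Osgin2 and 0.55 for Lzts3. The list itself differed between the groups, so the covariate takes up part of the contrast. Other lists also differed between combination and vehicle. Endothelial markers were higher in 9 of 9 (median 0.78, summed 176 to 495 CPM in the combination and 114 to 217 CPM in vehicle), and with them as a covariate Lzts3 was at 0.47. Adipocyte markers were higher in 13 of 13 (median 0.95, 227 to 512 CPM in the combination and 66.3 to 445 CPM in vehicle) and myelinating Schwann markers lower in 10 of 10 (median -0.34, 6416 to 26791 CPM in the combination and 18915 to 29387 CPM in vehicle). Neuron markers were higher in 10 of 10 (median 0.37, 92.6 to 4830 CPM in the combination and 67.1 to 3439 CPM in vehicle). Skeletal muscle markers were higher in 13 of 14 (median 2.83, 42.2 to 452 CPM in the combination and 39.5 to 117 CPM in vehicle), and CDKi 5 reached 3687 CPM. Macrophage markers were lower in 10 of 11 (median -0.18, 334 to 808 CPM in the combination and 525 to 696 CPM in vehicle). Mast cell markers were lower in 4 of 6 (median -0.71, 47.3 to 75.2 CPM in the combination and 34.6 to 97.9 CPM in vehicle) and liver markers in 5 of 7 (median -0.75, 163 to 343 CPM in the combination and 273 to 629 CPM in vehicle). None of these had a called gene or a marker at 0 in a whole group, and their part in the members' values was not tested beyond the covariates.

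The call that singled out the 6 genes depended on single libraries, while the size of their differences moved little when 1 library was left out. The genes were chosen for this contrast in these same libraries, so that steadiness describes the choice and carries no test. With each of the 24 libraries left out in turn, all 6 were called in 3 runs, 5 of them in 5 runs, 1 or 2 in 10 runs and 0 in 6 runs, as the number of called genes ranged from 0 (without combination 2 or combination 5) to 94 (without vehicle 4). Lzts3 kept an adjusted p under 0.05 in 17 of the 24 runs and Arsb in 3 (edgeR quasi-likelihood). Over the same runs the log2 fold change stayed between 0.52 and 0.61 for Lzts3, -1.25 and -1.14 for Fjx1, -0.56 and -0.45 for Pomk, -0.59 and -0.50 for Osgin2, -0.56 and -0.49 for Arsb, and -1.42 and -1.10 for BC039771. Without the 3 libraries with liver transcripts 108 genes were called and without the 3 with both Xist and Y-linked transcripts 70 were, all 6 members among them each time. All of those libraries were ERKi or CDKi libraries. The combination and vehicle libraries that chose the members thus stayed the same, and only filter, scaling and shared spread could change.

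**Figure D5:**
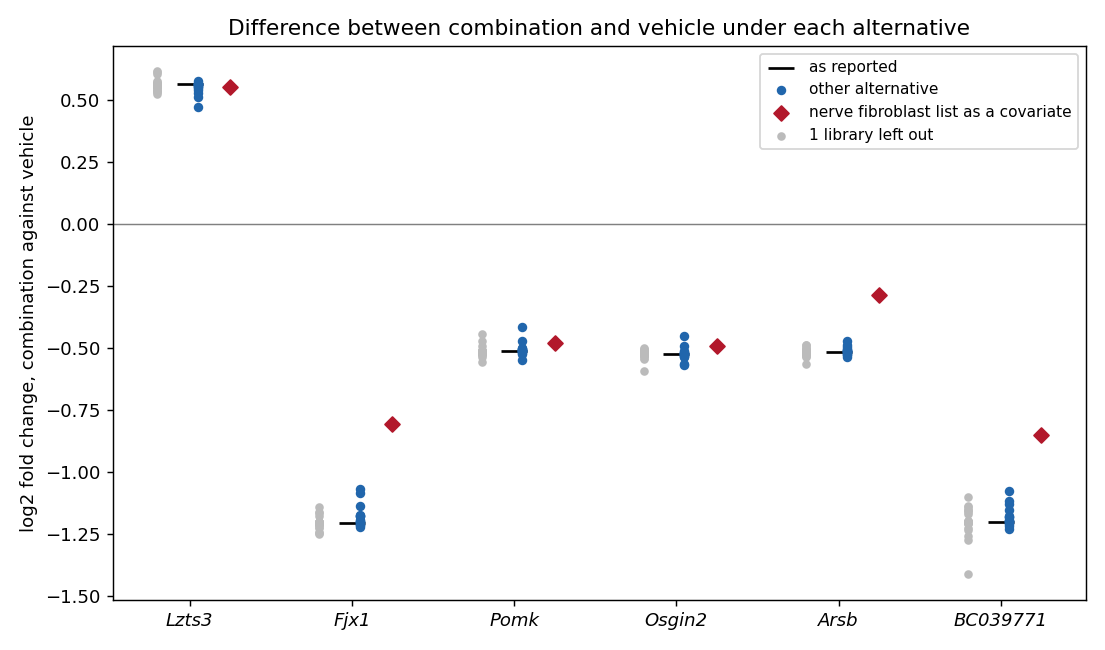
Log2 fold change between combination and vehicle for each gene as reported (black bar), with 1 library left out (grey), under the other alternatives (blue) and with the nerve fibroblast list as a covariate (red). No setting changes a sign for these genes, which were chosen for this contrast, and the covariate moves Arsb, Fjx1 and BC039771 towards 0.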

How the data were processed

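The 24 RNA sequencing libraries of bulk nerve were grouped by their treatment label. Their replicate numbers only name a library. The authors deposited raw counts per gene, a column for each library. Build mm10 and the tools FastQC, STAR and DESeq2 come from the submitters' processing notes; which program and annotation counted the reads, and on which strand, was not given in the sources used here. Per the labels' protocols, ribosomal RNA was removed before library construction, while the molecule label reads polyA RNA.

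The analysis used edgeR 4.0.16 in R 4.3.3. Genes kept by filterByExpr (minimum count 10, total 15) held at least 98.6% of each library's counts. TMM set the scale, and 1 quasi-likelihood model with 4 group means covered all 24 libraries (20 residual degrees of freedom, biological coefficient of variation 35.9%). P-values are two-sided, with Benjamini-Hochberg adjustment over 15385 genes and a threshold of 0.05. SE is the log2 fold change divided by the root of F. Per-library log2 CPM carries a prior count of 2. Alternatives were scaling, filters, DESeq2 1.42.0, limma-voom (limma 3.58.1), covariates and left-out libraries. The procedure was tested on simulated data with less spread than these libraries and larger changes than most members showed. That run does not measure how well changes of the members' size are found here.

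Of the symbols, 23204 (95.0%) matched RefSeq GRCm38.p6, and GENCODE vM21 gave exon lengths. Chi-square per degree of freedom was at least 19.8 in 60 within-group pairs of libraries, so no library repeated another of its group. Pairs across groups were not compared. Floors cover counting error only. Named genes were the members, every called gene of a pathway list and its 2 smallest p in combination against vehicle, the 3 genes most like each member, and 3 paralogs. Egr1, Slc27a6 and Clcn5, just outside the threshold, the neighbours Fnta, Hgsnat, Ubox5, Fastkd5 and Rin2, and Dpm1 were added outside that rule after values were seen. The members, lists and rules were chosen with earlier results of these data known.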

Additional observations from a re-analysis of the deposited data

Results flagged for a closer look

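Osgin2 in combination 1 stood far from the rest of its group, at 15.6 CPM against 11.6 to 12.4 CPM in the other 5 combination libraries. Without that library the log2 fold change of Osgin2 between combination and vehicle was -0.59.

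Arsb in vehicle 4 was low for its group, at 77.6 CPM against 93.5 to 101 CPM in the other 5 vehicle libraries. Vehicle 4 also had the lowest nerve fibroblast list mean of its group, 8.43 log2 CPM, whose part was not tested. Without vehicle 4 the log2 fold change of Arsb was -0.56. Each of 24 groups of values, 6 genes in 4 groups, was examined, and chance alone marks about 1 group in 20 in this way.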

How the results depend on the processing

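All 6 members kept the sign of their combination against vehicle difference under 17 alternatives and 24 runs with a library left out. They were chosen for that difference in these libraries, so a kept sign follows largely from the choice and carries no test. Depth limits Fjx1 and BC039771 most, since they have the fewest counts.

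Genes called in combination against vehicle, 19 as reported, numbered 272 by DESeq2, 30 by limma-voom, 6 with no filter, 10 with only the groups compared, 38 with the neuron, 1 with the adipocyte, 5 with the endothelial and 0 with the nerve fibroblast covariate. They were 1 without the deepest and shallowest libraries, 108 without the libraries with liver transcripts, 70 without those with both Xist and Y-linked transcripts, and 0 to 94 with 1 library left out. Combination against CDKi, 1 as reported, gave 84 by DESeq2, 4 by limma-voom, 5 with the pan Schwann or endothelial covariate, 0 with the adipocyte or nerve fibroblast covariate or only the groups compared, and 0 to 6 with 1 library left out. Combination against ERKi, 0 as reported, gave 35 by DESeq2, 6 by limma-voom, 1 without the deepest and shallowest libraries and 0 to 1 with 1 library left out. CDKi against vehicle, 0 as reported, gave 30 by DESeq2, 1 with no filter, with the neuron covariate or without the libraries with both Xist and Y-linked transcripts, and 0 to 3 with 1 library left out. ERKi against vehicle, 0 as reported, gave 2 by DESeq2 and 1 with the adipocyte covariate. ERKi against CDKi stayed at 0 throughout. The cause of these changes was not tested.

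In ERKi against CDKi the uncalled value of Osgin2, 0.04, became -0.041 without the libraries with liver transcripts and -0.065 without those with both Xist and Y-linked transcripts, and ranged from -0.038 to 0.070 with 1 library left out. That of Pomk, -0.03, became 0.013 by limma-voom. Covariates on the nerve fibroblast list also moved Arsb in ERKi against vehicle to -0.17 and in combination against CDKi to -0.15, Fjx1 in ERKi against vehicle to -0.16, from -0.46, and BC039771 there to 0.020, from -0.29. Without CDKi 3, Fjx1 in CDKi against vehicle became -0.074, from 0.09. No paired analysis was possible because the labels carry no replicate numbers that could pair libraries across groups.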
